A study of Mus musculus with 4 samples.

Results

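Transcripts of tumour necrosis factor (TNF), its receptors and the proteins that carry its signal were followed in CCR2+ Cx3cr1+ macrophages sorted from the injured sciatic nerve of aged and young mice. The 10 genes were chosen by symbol from a table of 24028 genes, and all 10 passed the minimum of 1 FPKM on average, a read density scaled by gene length and library size. All animals were female, carried the reporters Cx3cr1-GFP+/- and Ccr2-RFP+/-, and were studied on day 3 after nerve injury. The aged animals were 15 months old and the young animals 3 months old, with 2 libraries per age. Both reporters are insertions into the loci they report, so every animal kept a single intact copy of Ccr2 and of Cx3cr1. Material of 7 to 8 mice per time point was pooled into those libraries. The sources used here do not say which mice entered which pool, so a p-value measures the spread between pools, which may be technical.

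TNF is made as a trimer in the cell membrane and is cut free by the protease ADAM17. Its receptor TNFRSF1A, present on most cells, carries a death domain that recruits the adaptor TRADD and the kinase RIPK1, and TRAF2 then brings in the ubiquitin ligases encoded by Birc2 and Birc3. The receptor TNFRSF1B, found mainly on blood cells and endothelium, has no death domain and binds TRAF2 directly, which TRAF1 can join. Ubiquitin chains made at the receptor lead to NF-kB and MAP kinase signals, and the same proteins can instead lead to cell death. In cut or crushed nerve, TNF is among the early cytokines of Wallerian degeneration and is made by Schwann cells and macrophages.

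The recovered read totals were 8613360 and 9986706 for the aged libraries and 11489336 and 10765234 for the young libraries. The 10 genes had at least 108 to 7352 reads in a library. Summed levels of 9 macrophage markers were 12200 and 9226 FPKM in aged and 14030 and 11700 FPKM in young libraries, most of it Lyz2, without which the sums were 1714 and 1735 FPKM in aged and 1759 and 1817 FPKM in young libraries. The sorted loci were present, with Ccr2 between 275.7 and 399.9 FPKM and Cx3cr1 between 16.1 and 19.8 FPKM. Markers of other cells were lower, with 6 fibroblast markers summing to 87.6 and 62.8 FPKM in aged and 39.4 and 192 FPKM in young libraries. In the list of T and NK cells the sum was 16.6 and 107 FPKM in aged and 12.8 and 16.0 FPKM in young libraries, of which Cd3g alone gave 97.8 FPKM in aged replicate 2. Young replicate 2 was thus the high library for fibroblast markers. It also had the highest sums for Schwann cell, endothelial and dendritic cell markers. Without Cd3g the T and NK cell sum was 15.8 and 9.04 FPKM in aged and 11.8 and 14.4 FPKM in young libraries, lowest in aged replicate 2. Neutrophil markers summed to 50.1 and 59.0 FPKM in aged and 45.1 and 47.1 FPKM in young libraries. In the B cell list the sum was 30.4 and 8.22 FPKM in aged and 7.23 and 9.68 FPKM in young libraries. Endothelial, dendritic cell, mast cell and Schwann cell markers summed to at most 58.1 FPKM per list, and no marker matched in the table was at 0 in all 4 libraries. Genes induced by tissue dissociation summed to 3315 and 3565 FPKM in aged and 3335 and 3826 FPKM in young libraries.

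By mean level, 8 of the 10 genes ranked between the 82.5 and 97 percentiles of the genes tested, and Birc2 and Traf2 near the middle. The transcript of the adaptor Tradd was the most abundant, at 154 FPKM over the 4 libraries, followed by the receptor Tnfrsf1b at 122.5 FPKM. A middle group held Tnf at 78.7, Tnfrsf1a at 73.7, Adam17 at 68.8, Birc3 at 67.8 and Traf1 at 46.6 FPKM. Ripk1 lay at 30.2 FPKM, and the least abundant were Birc2 at 7.54 and Traf2 at 5.19 FPKM. These levels are per length as the authors' values imply it, and the amplification can copy transcripts unevenly, so the order is that of the deposited scale. GENCODE exon lengths were also tried, with reads taken as the smallest whole numbers that the values allow. Tnfrsf1b would then stand at 158 FPKM and Tradd at 114 FPKM. Birc3 would stand at 46.0 and Adam17 at 43.8 FPKM, and Ripk1 at 22.1 and Traf1 at 15.8 FPKM. Each of these values is a lower bound, so the order at GENCODE lengths is not settled. In the order on the deposited scale, ranges over the 4 libraries did not overlap between Tnfrsf1b and Tnf or between Ripk1 and Birc2. They overlapped between all other neighbours.

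Beside Tnf and Tradd, whose places are given with their values, the annotation (GENCODE M21, GRCm38) puts Tnfrsf1a on chromosome 6 from 125349362 to 125362484 (plus), Tnfrsf1b on chromosome 4 from 145213463 to 145246870 (minus), Adam17 on chromosome 12 from 21323509 to 21373632 (minus), Traf1 on chromosome 2 from 34941750 to 34961772 (minus). It puts Traf2 on chromosome 2 from 25517982 to 25546940 (minus), Ripk1 on chromosome 13 from 34002363 to 34037147 (plus), Birc2 on chromosome 9 from 7818227 to 7837064 (minus) and Birc3 on chromosome 9 from 7848699 to 7873186 (minus), with the strand in brackets.

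**Figure D1:**
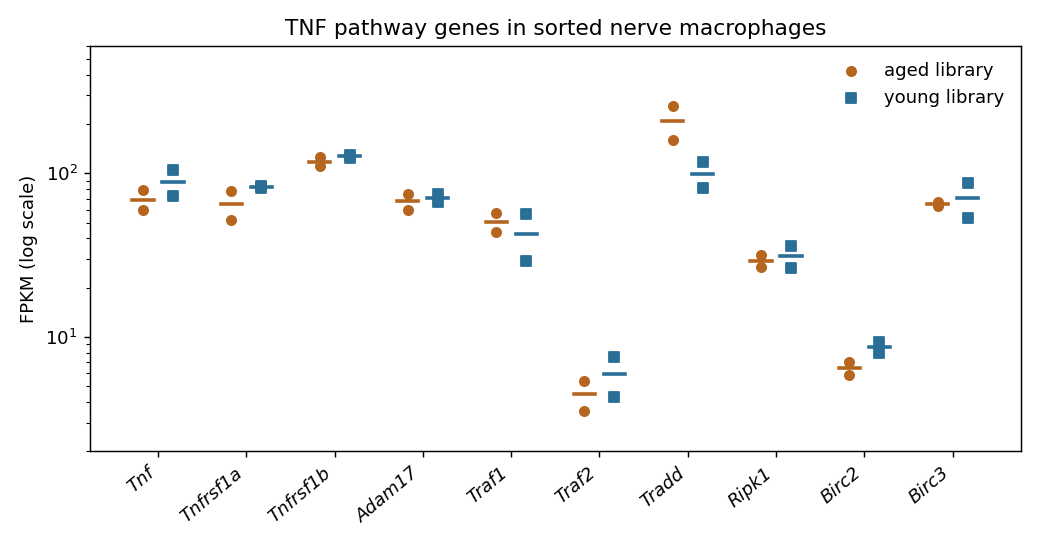
Level of each gene in each library, in FPKM on a log axis, with aged libraries as circles left of young libraries as squares and a bar at the mean of each age. Tradd is the single gene with both aged libraries above both young libraries, and Traf2 and Birc2 lie lowest.

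Between the ages, Tradd had the widest difference of the 10 genes. It averaged 2.09 times the young level in aged macrophages, while the ligand, both receptors and the other adaptors differed by at most 0.37 on the log2 scale. None of the 10 passed the test over all genes. limma's moderated test on log2(FPKM + 1) called 0 of 11656 genes (0.0%) at an adjusted p below 0.05, and the smallest adjusted p was 0.567. At an unadjusted p below 0.05 it gave 773 genes (6.63%), with 1.76% of all genes tested higher and 4.87% lower in aged cells. Tradd was the 1 member among them, on the higher side. In bulk samples, fewer cells of a type and less RNA per cell cannot be told apart.

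Of the 10 genes, 8 had a difference below 0, beside 59.5% of the genes tested, and the median was -0.09 for both. The ages did not overlap in 3 of the 10, beside 38.0% of the genes tested. In 6 of the 10, beside 53.6%, the gap between the young libraries was wider than the difference between the ages.

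The levels of the ligand overlapped between the ages. Tnf had 78.7 and 59.4 FPKM in aged libraries, against 104 and 72.4 FPKM in young libraries. The upper aged library thus lay between both young libraries, and the lower one below them. Its mean was 69.0 ± 13.6 FPKM in aged and 88.4 ± 22.6 FPKM in young cells (SD, n = 2 each), a log2 difference of -0.34 (SE 0.27; limma, adjusted p 0.792). The gap between both young libraries, 0.52 on the log2 scale, was wider than the difference between the ages. Without young replicate 1 the difference was -0.08, and without aged replicate 2 it was -0.14. Tnf is annotated on chromosome 17, from 35199381 to 35202007 on the minus strand (GRCm38).

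On the log2(FPKM + 1) scale, the scaling of the values moved the difference between the ages most for Tnf, followed by Traf2. In the table as deposited, each value stood on a read total that changed from gene to gene. There Tnf read 64.0 and 55.1 FPKM in aged libraries, against 111 and 125 FPKM in young libraries, and the ages did not overlap. The log2 difference was -0.98 in those values, with an unadjusted p of 0.0157 and an adjusted p of 0.577 (limma), and thus 0.63 further below 0 than on each library's own total. Traf2 stands at the same place of the repeating totals, so its values were rescaled by the same factors as those of Tnf in every library. Its difference was -0.88 as deposited against -0.32, a smaller shift because the 1 added before the logarithm weighs more on low values. Tradd read 128 and 409 FPKM in aged libraries as deposited, against values of 119.6 FPKM and above in young libraries, so that its ages overlapped there. Shifts of the log2 difference over the 10 genes ran between -0.63 for Tnf and 0.13 for Birc3.

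**Figure D2:**
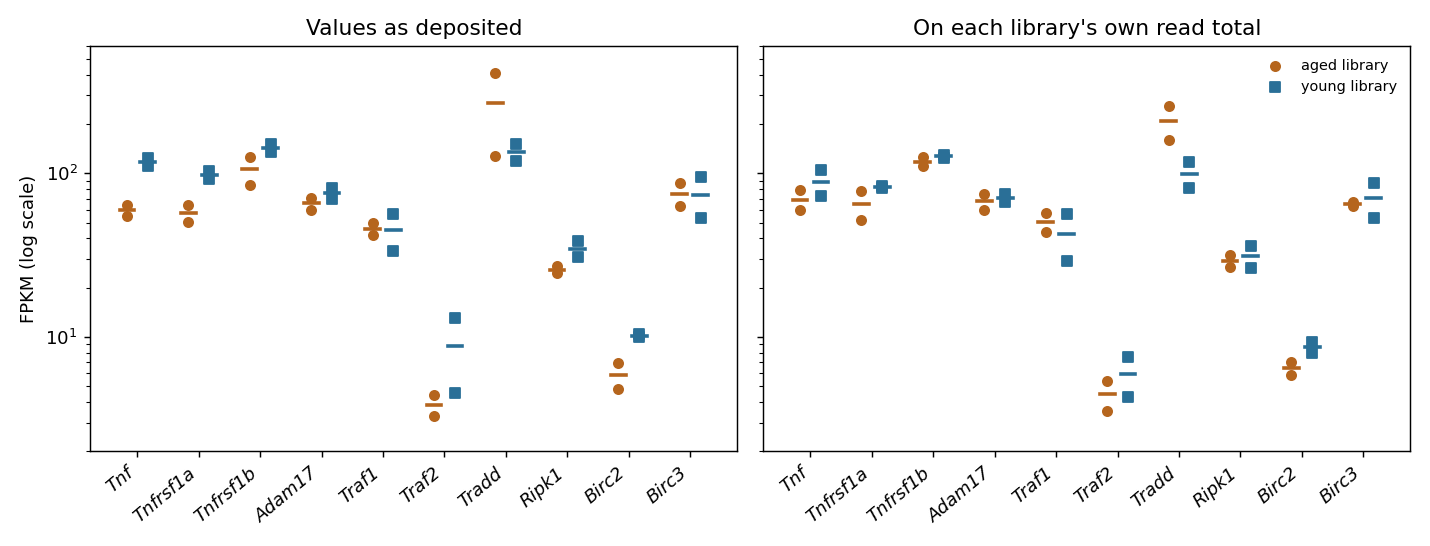
FPKM on a log axis for each gene and library, as deposited on the left and on each library's own read total on the right; circles are aged libraries, squares young libraries, bars the means of each age. Tnf separates the ages as deposited (64.0 and 55.1 against 111 and 125 FPKM) and overlaps once rescaled (78.7 and 59.4 against 104 and 72.4 FPKM).

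Adam17, the protease that sheds TNF, had 59.9 and 74.8 FPKM in aged libraries, against 74.3 and 66.3 FPKM in young libraries, a log2 difference of -0.07 (SE 0.22). The libraries of both ages interleaved, and the difference was 0.0456 with median-ratio scaling, where the median of all genes was 0.00568. In the annotation, 311 bases of its exons are shared with Iah1 on the opposite strand, and no source used here says whether the authors counted by strand.

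The receptors stood at different levels in every library. Tnfrsf1b had 110.2 and 125 FPKM in aged libraries, against 130.2 and 125 FPKM in young libraries, and the log2 difference was -0.12 (SE 0.19). Tnfrsf1a had 78.3 and 51.8 FPKM in aged libraries, against 81.7 and 83.1 FPKM in young libraries. The ages did not overlap in Tnfrsf1a, although its upper aged library came close to the young level. Its log2 difference was -0.37 (SE 0.25; limma, adjusted p 0.772), and -0.07 without aged replicate 2. The transcript of Tnfrsf1b was at least 1.41 times that of Tnfrsf1a in every library, and 2.41 times in aged replicate 2.

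Among the adaptors, Tradd, which links the death domain of TNFRSF1A to RIPK1 and TRAF2, had 160 and 256 FPKM in aged libraries, against 81.6 and 118 FPKM in young libraries. Both aged libraries lay above both young libraries, which was so for 1 of the 10 genes and for 11.8% of all genes tested. The mean was 208 ± 68.4 FPKM in aged and 99.6 ± 25.4 FPKM in young cells (SD, n = 2 each), 2.09 times as high in aged cells. The log2 difference of 1.04 (SE 0.31) exceeded the gaps of 0.68 within the aged pair and 0.52 within the young pair. It had an unadjusted p of 0.0141 and an adjusted p of 0.740 (limma), and 284 of 11656 genes (2.44%) had a difference at least as large. The difference ranged between 0.70 and 1.38 without a single library. Its lowest value came without aged replicate 2, the library with the high Cd3g. In that library Cd3d was at 0.376 and Cd3e at 0.349 FPKM. The B cell factor Pax5 had 18.7 and 4.48 FPKM in aged libraries, against 0.793 and 0.461 FPKM in young libraries, and so was also higher in both aged libraries. Cd79b, also a B cell marker, had 11.1 and 2.84 FPKM in aged libraries, against 5.45 and 7.99 FPKM in young libraries, while Cd79a and Ms4a1 were at most 0.590 FPKM in any library. The part of such cells in the result was not tested. Tradd lies on chromosome 8, from 105258286 to 105264609 on the minus strand (GRCm38), and shared none of its 50-base stretches with another annotated gene.

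**Figure D3:**
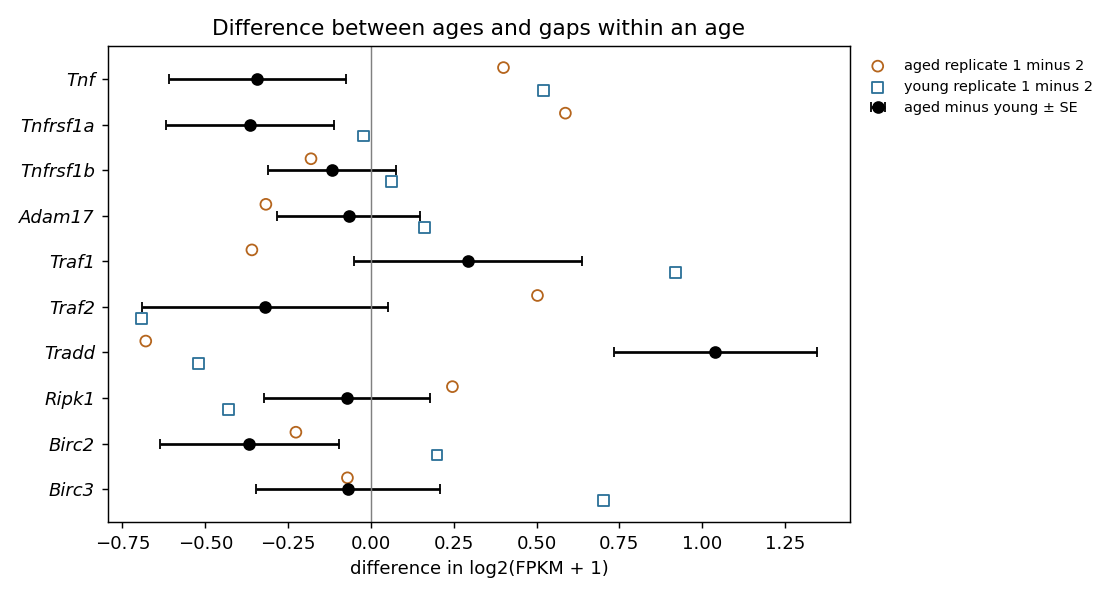
Difference of aged minus young in log2(FPKM + 1) for each gene (filled circle, ± SE), beside the gap between both aged libraries (open circle) and both young libraries (open square). The difference of 1.04 for Tradd exceeds in size its gaps of -0.68 (aged) and -0.52 (young), each replicate 1 minus 2, whereas the gap of 0.92 between the young libraries of Traf1 exceeds its difference of 0.29.

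Ripk1, the kinase that either builds the signalling platform or, when active, starts cell death, had 31.8 and 26.7 FPKM in aged libraries, against 26.3 and 35.8 FPKM in young libraries. The ages overlapped fully, with a log2 difference of -0.07 (SE 0.25). Of its 50-base stretches, 7.87% also occur in other annotated genes, mainly the pseudogene Gm17084.

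Of the paired adaptors, Traf1 was the more abundant by 8.14 and 16.1 times Traf2 in aged libraries and by 13.1 and 3.88 times in young libraries. At GENCODE lengths their means would be at least 15.8 and 3.12 FPKM, so the margin at those lengths is not settled. TRAF2 is the adaptor common to both receptors, while TRAF1 is known as an NF-kB target that joins TRAF2 at the receptor. Traf1 had 44.1 and 56.8 FPKM in aged libraries, against 56.3 and 29.3 FPKM in young libraries, so that the ages overlapped and young replicate 2 was the lowest library. Its log2 difference was 0.29 (SE 0.34), and turned to -0.17 without young replicate 2. Traf2 had 5.42 and 3.53 FPKM in aged libraries, against 4.29 and 7.55 FPKM in young libraries, with a log2 difference of -0.32 (SE 0.37) that was 0.03 without young replicate 2. It was the least read of the 10 genes, and the 108 reads of aged replicate 2 gave an exact Poisson interval of 2.89 to 4.26 FPKM (95%, counting error only). The intervals of the young libraries, 3.63 to 5.03 FPKM and 6.64 to 8.54 FPKM, did not overlap each other.

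Of the ubiquitin ligases, Birc3 was the more abundant by 10.8 and 9.47 times in aged libraries and by 9.42 and 6.71 times in young libraries. Birc3, itself a known NF-kB target, had 63.5 and 66.7 FPKM in aged libraries, against 87.4 and 53.4 FPKM in young libraries. Both aged libraries lay between both young libraries, with a log2 difference of -0.07 (SE 0.28) that became 0.28 without young replicate 1. Birc2 had 5.88 and 7.05 FPKM in aged libraries, against 9.29 and 7.96 FPKM in young libraries. The ages did not overlap in Birc2, with aged below, as in Tnfrsf1a, which makes 2 of the 10 genes beside 26.2% of all genes tested. The log2 difference of Birc2 was -0.37 (SE 0.27; limma, adjusted p 0.778). Both genes neighbour each other on chromosome 9 and are close in sequence, and 1.42% of the 50-base stretches of Birc2 also occur in Birc3. Of the stretches of Birc3, 7.56% also occur in other annotated genes, with the largest share in Gm7019 (4.19%).

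Within the young pair, 6 of the 10 genes were higher in replicate 1, beside 32.4% of the genes tested. Tnf, Traf1 and Birc3 were each higher in young replicate 1 than in young replicate 2, by 0.52, 0.92 and 0.70 on the log2 scale, a grouping made after their values were seen. A gap of 0.5 or more in that direction was found in 6.86% of all genes tested. Fibroblast markers summed to 39.4 FPKM in young replicate 1 and 192 FPKM in young replicate 2. In the same order, Schwann cell markers summed to 27.1 and 58.1 FPKM and endothelial markers to 9.25 and 21.7 FPKM. Dendritic cell markers summed to 35.4 and 43.3 FPKM, and mast cell markers, the other way, to 8.56 and 7.65 FPKM. Of 9 macrophage markers, 6 were lower in young replicate 1, where 32.4% of all genes tested were higher and most were lower. Lyz2 was at 12270 FPKM there and at 9886 FPKM in young replicate 2. The part of macrophages and of these other cells in the gap was not tested. The 250 bases before the start sites of these genes are printed because all 3 are known targets of NF-kB, with capitals on each match of GGG and CC spaced by any 5 bases, a loose form of its site, on either strand. They come from RefSeq (GRCm38.p6), 5' to 3' on the gene's own strand, and lie at chr17:35202008-35202257, chr9:7873171-7873420 and chr2:34961773-34962022, all on the minus strand.
Tnf: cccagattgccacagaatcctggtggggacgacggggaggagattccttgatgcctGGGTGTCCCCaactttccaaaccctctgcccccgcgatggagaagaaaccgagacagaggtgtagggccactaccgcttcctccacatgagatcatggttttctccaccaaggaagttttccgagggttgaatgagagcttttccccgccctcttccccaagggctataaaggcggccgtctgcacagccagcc
Birc3: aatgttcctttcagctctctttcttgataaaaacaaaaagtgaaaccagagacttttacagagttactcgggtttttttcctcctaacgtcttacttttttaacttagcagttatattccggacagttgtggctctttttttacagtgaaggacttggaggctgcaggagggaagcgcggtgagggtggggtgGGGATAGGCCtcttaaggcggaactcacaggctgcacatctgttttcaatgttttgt
Traf1: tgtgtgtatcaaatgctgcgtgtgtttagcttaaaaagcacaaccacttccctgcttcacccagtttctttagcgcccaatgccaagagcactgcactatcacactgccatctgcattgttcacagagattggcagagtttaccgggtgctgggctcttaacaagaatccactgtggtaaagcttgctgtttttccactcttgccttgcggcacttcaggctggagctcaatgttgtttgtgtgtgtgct
Tnf had a match starting at position -194 from the start site that reads as the motif on both strands. Birc3 had one at -57, and Traf1 had none in this window. Of the 9 genes with an entry in the table (all but Tradd), 7 had a match in at least 1 window, beside 48.7% of all 27025 genes.

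The closest profiles to that of Tnf over the 4 libraries were those of Mrps33, Yipf4 and H2-K2, by the Euclidean distance of centred log2 values (0.03, 0.03 and 0.05, against a median of 0.741 over 6868 genes). With 4 libraries such likeness is a description of these libraries only. Of the other 9 genes, Tnfrsf1a at 0.41 and Birc3 at 0.45 were the nearest to Tnf, and Tradd at 1.74 was the farthest.

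The rest of the pathway was read through 8 lists with 140 entries, all found in the table, and no gene of any list passed limma's test over all genes. The ligands of the superfamily were mostly low, with 6 of 17 tested and a median of 0.12. Tnfsf9, which costimulates T cells, was the exception in level, at 224 and 319 FPKM in aged libraries, against 306 and 193 FPKM in young libraries. Tnfsf14, the ligand LIGHT, had 14.7 and 8.52 FPKM in aged libraries, against 7.31 and 5.57 FPKM in young libraries. Tnfsf18 had 3.38 and 5.43 FPKM in aged libraries, against 2.99 and 0.810 FPKM in young libraries. In both, aged libraries lay above young ones, which makes 2 of the 6 tested, beside 11.8% of all genes tested. The list's median moved with single libraries, to 0.55 without young replicate 1 and -0.25 without aged replicate 2. The medians of all genes tested were then -0.173 and -0.0882.

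Of 26 other receptors, 15 were tested, 8 with a difference below 0 and 7 above it (median -0.12). Tnfrsf12a, the receptor for TWEAK, had 10.9 and 10.6 FPKM in aged libraries, against 19.9 and 23.6 FPKM in young libraries. Both aged libraries were well below both young ones, with a log2 difference of -0.95 (SE 0.24; limma, unadjusted p 0.0066, adjusted p 0.740). Aged libraries were lower without overlap in 3 of the 15 receptors tested, beside 26.2% of all genes tested. Cd40, which drives macrophage activation on contact with T cells, had 39.7 and 32.7 FPKM in aged libraries, against 56.2 and 39.4 FPKM in young libraries, with overlap. Tnfrsf21, also known as death receptor 6, was 21.7 ± 6.23 FPKM in aged and 25.6 ± 3.41 FPKM in young cells. Ngfr, also a Schwann cell marker, had 12.3 and 7.73 FPKM in aged libraries, against 3.30 and 8.29 FPKM in young libraries.

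Of the 16 genes that control the TNF message and its release, none passed the adjusted test, and the ages did not overlap in 4, beside 38.0% of all genes tested. Those with the smallest p were Zfp36 and Zc3h12a. Zfp36, which encodes tristetraprolin, a protein that binds the Tnf message and hastens its decay, had 172 and 172 FPKM in aged libraries, against 312 and 298 FPKM in young libraries. Zc3h12a, which encodes the ribonuclease Regnase-1 that degrades inflammatory messages, had 111 and 81.6 FPKM in aged libraries, against 39.6 and 54.2 FPKM in young libraries. Aged libraries were lower in Zfp36 and higher in Zc3h12a, without overlap. Log2 differences were -0.82 (SE 0.18; limma, unadjusted p 0.00394) for Zfp36 and 1.02 (SE 0.26; unadjusted p 0.00763) for Zc3h12a, with an adjusted p of 0.740 in both. Without single libraries they ranged between -0.85 and -0.79 for Zfp36 and between 0.80 and 1.24 for Zc3h12a. Zfp36l2 was 242 ± 35.9 FPKM in aged and 204 ± 0.373 FPKM in young cells. Over the 16 genes of this list, 9 had a difference above 0 and 7 below it, and the median was 0.11.

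**Figure D4:**
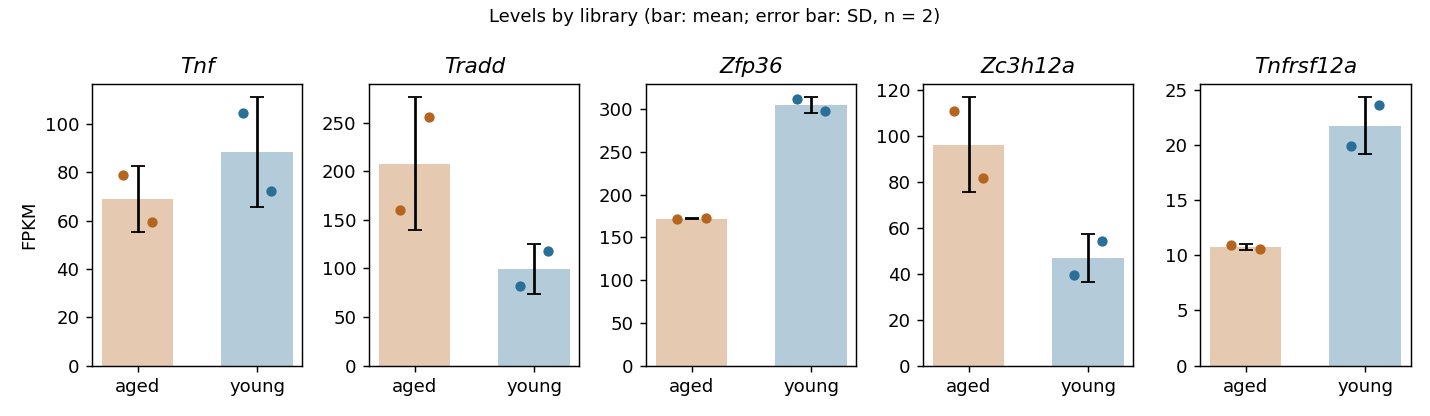
FPKM of Tnf, Tradd, Zfp36, Zc3h12a and Tnfrsf12a by library, with aged left of young, points for libraries, bars for means and error bars for the SD (n = 2 each). Zfp36 and Tnfrsf12a are lower and Tradd and Zc3h12a higher in both aged libraries than in both young ones, and Tnf overlaps.

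Enzymes that build or cut ubiquitin chains at the receptor had a median of -0.03 over 19 genes. Tnfaip3, whose product A20 limits NF-kB signals, had 267 and 271 FPKM in aged libraries, against 401 and 260.2 FPKM in young libraries, again with young replicate 1 high. Usp4 was 57.9 ± 4.09 FPKM in aged and 52.2 ± 8.98 FPKM in young cells. Tax1bp1, a partner of A20, was 30.6 ± 4.22 FPKM in aged and 48.7 ± 7.03 FPKM in young cells, and Ube2n, a ubiquitin-conjugating enzyme, was 13.4 ± 1.15 FPKM in aged and 20.3 ± 0.982 FPKM in young cells. The ages did not overlap in Tax1bp1 and Ube2n, with aged lower, and they overlapped in Tnfaip3 and Usp4. Of the 19 genes, 6 did not overlap between the ages, beside 38.0% of all genes tested. The other TRAF genes and partners had a median of -0.05 over 9 genes. Among them, the kinase gene Tbk1 had 29.7 and 22.3 FPKM in aged libraries, against 39.7 and 37.9 FPKM in young libraries. Trafd1 was 79.1 ± 12.6 FPKM in aged and 94.5 ± 39.2 FPKM in young cells. Traf7 was 21.8 ± 15.5 FPKM in aged and 10.2 ± 1.71 FPKM in young cells, with 32.8 FPKM in aged replicate 2.

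In the death arm, 7 of 8 genes had a difference below 0, beside 59.5% of all genes tested, and the median was -0.13 beside -0.09. Casp8 was 78.6 ± 17.5 FPKM in aged and 85.3 ± 3.83 FPKM in young cells, and Mlkl, the executor of necroptosis, was 29.8 ± 0.499 FPKM in aged and 32.6 ± 3.73 FPKM in young cells. Ripk3, the kinase that activates MLKL, had 18.4 and 14.5 FPKM in aged libraries, against 23.9 and 21.0 FPKM in young libraries, and Fadd was 1.83 ± 0.471 FPKM in aged and 2.65 ± 0.277 FPKM in young cells. Ripk3 and Fadd did not overlap between the ages, with aged lower. They were 2 of the 8 genes of this arm, beside 26.2% of all genes tested. The MAP kinase and IKK arm had a median of -0.10 over 18 genes. The ages did not overlap in 9 of them, beside 38.0% of all genes tested. Its most abundant gene, Mapkapk2, whose product stabilizes the Tnf message through the p38 pathway, had 391 and 396 FPKM in aged libraries, against 364 and 338 FPKM in young libraries, a difference of 0.17 that was -0.0737 in the values as deposited. Mapk14, which encodes p38 alpha, was 86.0 ± 5.34 FPKM in aged and 106.5 ± 21.3 FPKM in young cells. Map3k8 was 14.7 ± 2.53 FPKM in aged and 21.8 ± 0.384 FPKM in young cells, and Mapk9 was 7.82 ± 0.694 FPKM in aged and 11.4 ± 0.515 FPKM in young cells.

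Genes known to be induced by TNF had a median of -0.22 over 25 genes, beside -0.09 for all genes tested, and 17 of the 25 had a difference below 0, beside 59.5%. In 9 of the 25 the aged libraries were lower without overlap, beside 26.2% of all genes. Cxcl10, also an interferon target, was 22.6 ± 1.40 FPKM in aged and 38.1 ± 1.89 FPKM in young cells (limma, unadjusted p 0.0129, adjusted p 0.740), and Il6 was 11.2 ± 4.43 FPKM in aged and 19.4 ± 3.06 FPKM in young cells. Il1b, with 913 and 770.0 FPKM in aged libraries, had 1395 and 818 FPKM in young libraries. Ccl2 had 765 and 660.1 FPKM in aged libraries, against 1778 and 636.5 FPKM in young libraries. Young replicate 1 held the high value of both. Without that library the median of the list was 0.04, beside -0.173 for all genes then tested.

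**Figure D5:**
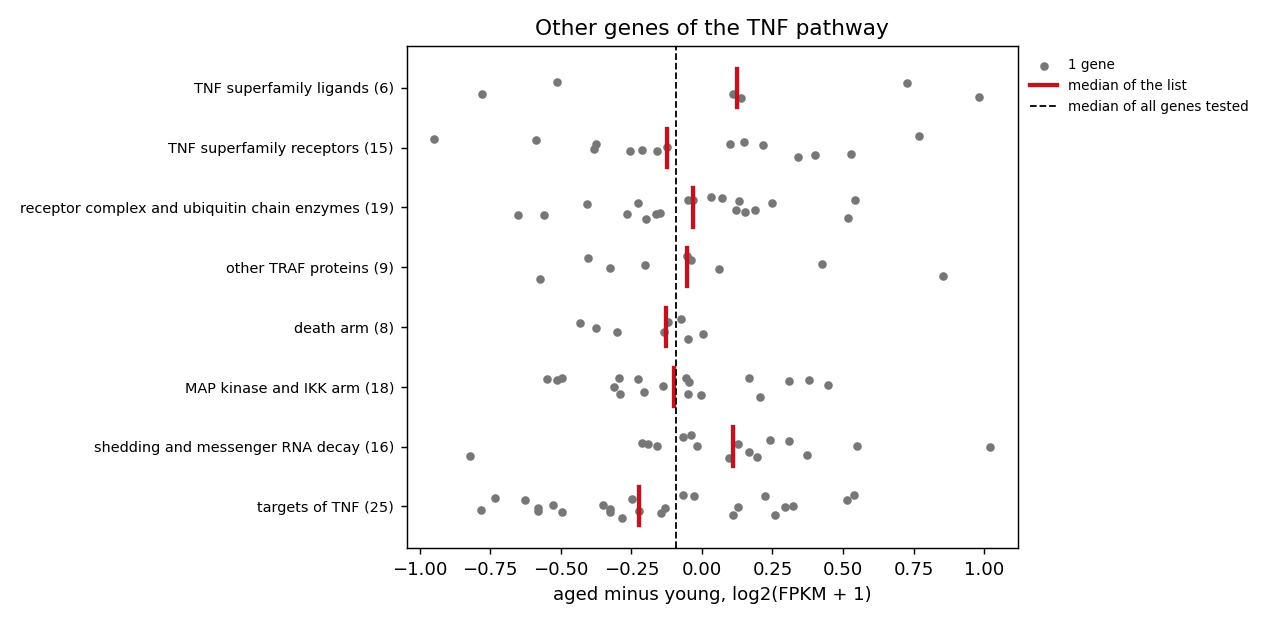
Difference of aged minus young in log2(FPKM + 1) for each tested gene of the 8 lists (grey points; number tested in brackets), with the median of each list as a red bar and that of all genes tested as a dashed line at -0.09. Medians lie between -0.22 for targets of TNF and 0.12 for ligands, beside -0.09 for all genes.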

How the data were processed

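The deposited table holds FPKM calculated by the authors for 24028 genes in 4 libraries, with Entrez IDs and symbols. The submitters' processing notes name BWA 0.7.12, bcl2fastq, DESeq2 and the build mm10, without saying what each did. Per the labels' protocols, cells were lysed on sorting, and cDNA primed with oligo-dT was amplified by multiple displacement, which can copy transcripts unevenly. The deposited values had been divided by 12 read totals that recycle over genes in text order of Entrez ID, with a shift of 4 places per column. With these undone, 7108 of 17881 genes above 0 in all libraries (39.8%) gave whole-number ratios between columns (denominators up to 30, tolerance 2e-07), and 0 did as deposited on own totals or at any other shift. Values were put on each library's own total. The rule and the 12 totals were known from earlier work on these data and were checked here. Reads are the smallest whole numbers that the values allow, and so lower bounds.

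limma 3.58.1 (R 4.3.3) was fitted to log2(FPKM + 1), with an intensity trend, two-sided, over 11656 genes with a mean of at least 1 FPKM, with Benjamini-Hochberg adjustment at 0.05. Fold changes on this scale understate those of low genes. The fit was also run on simulated data with the same spread for every gene, unlike these libraries, and no result here rests on it. An exact permutation of 2 against 2 libraries cannot give a p below 0.333 and was not used. Members, lists and tests were chosen with earlier results of these data known. Named beside the members were, of each pathway list, the 2 genes with the highest mean and the 2 with the smallest p, of the marker lists the 2 highest (given here mostly as list sums), and the 3 nearest profiles to Tnf with a mean of at least 5 FPKM, gene models named Gm or Rik left out. Lars2, which is in none of the lists, and some further markers were named after their values were seen. Of 75 marker entries 74 matched. Alternatives were the deposited scaling, a pseudocount of 0.1, other filters, median-ratio and quantile scaling, no trend, a replicate block and leaving out each library. Coordinates are from GENCODE M21 (GRCm38). Columns matched to no sample numbered 0.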

Additional observations from a re-analysis of the deposited data

How the results depend on the processing

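No member passed the adjusted threshold in any of the 12 alternatives, and Tnf, Tnfrsf1a, Tnfrsf1b, Tradd and Birc2 kept their direction in all 12. Over these, limma's adjusted p ranged between 0.504 and 0.990 for Tnf and between 0.191 and 0.968 for Tradd. The count of genes called was 0 in 10 of them. It was 1 with a replicate block and 0 to 19 without a single library, with the 19 found without aged replicate 1, none of them among the 10 genes or the pathway lists. The sample titles give replicate numbers only, and do not say whether libraries of the same number belong together. The correlation between the ages' replicate differences over genes was -0.000384. The block with 1 call (Lars2) is therefore not read as a paired analysis of the design.

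Signs turned as follows. With median-ratio scaling Adam17 was 0.0456, Ripk1 0.0393 and Birc3 0.0430, while the median of all genes also rose, from -0.0918 to 0.00568. As deposited, Birc3 was 0.0588, Tnfsf9 -0.21 and Mapkapk2 -0.0737. Without a single library the differences ranged from -0.23 to 0.0912 for Adam17, -0.17 to 0.75 for Traf1, -0.66 to 0.0277 for Traf2, -0.29 to 0.14 for Ripk1, -0.42 to 0.28 for Birc3, -0.19 to 0.47 for Tnfsf9, -0.54 to 0.0302 for Tnfrsf21, -0.57 to 0.0466 for Tnfaip3, -0.0185 to 0.33 for Usp4, -0.63 to 0.23 for Trafd1, -0.36 to 0.093 for Casp8, -0.73 to 0.0352 for Il1b and -1.32 to 0.16 for Ccl2.

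The deposited scaling moved the median of all genes to -0.314, against -0.0918 on own totals. That median was 0.00568 with median-ratio scaling, -0.023 with quantile scaling and -0.0903 with a minimum of 5 FPKM. Without a single library it ranged from -0.173 to 0.00408. In the values as deposited the list medians were -0.19 for ligands, -0.29 for receptors, -0.28 for ubiquitin enzymes, -0.43 for other TRAF genes, -0.42 for the death arm, -0.33 for the MAP kinase and IKK arm, -0.0731 for shedding and decay and -0.47 for targets. With median-ratio scaling the ubiquitin list was 0.0785, the death arm -0.0138 and the MAP kinase and IKK arm 0.0063. With quantile scaling the receptors were 0.022 and the death arm -0.0888, and with a minimum of 5 FPKM the receptors were -0.23. Without a single library medians ranged from -0.25 to 0.55 for ligands, -0.34 to -0.0524 for receptors and -0.12 to 0.0365 for ubiquitin enzymes. They ranged from -0.27 to 0.20 for other TRAF genes, -0.21 to -0.13 for the death arm and -0.26 to -0.0268 for the MAP kinase and IKK arm. For shedding and decay the range was -0.0081 to 0.17, and for targets -0.41 to 0.0352. The cause of these shifts was not tested. With 2 libraries per age, the median gaps of 0.352 within the aged pair and 0.308 within the young pair limit which differences can be told from the spread.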
